A study of Homo sapiens with 8 samples.

Results

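Chromosome 19 was examined in bulk RNA-seq libraries of the PC9 cell line family, to ask where along it PC9-MGH, for which a loss had been inferred from single-cell RNA, had lower counts and where it had higher ones. The members are the rows of the count table whose name, with hyphens written as dots, matches exactly 1 symbol of the GENCODE annotation and lies on this chromosome. They are 1437 of the 22214 rows that match exactly 1 symbol, out of 22664 rows with a symbol. PC9 is a human non-small cell lung cancer line that depends on EGFR with an exon 19 deletion, which all 8 populations carry. The 3 cell line versions are PC9-VU, PC9-MGH, which was acquired separately, and PC9-BR1, which was made from PC9-VU by raising the dose of the EGFR inhibitor afatinib and is the only population labelled positive for the T790M mutation. DS3, DS6, DS7, DS8 and DS9 are sublines of PC9-VU that were expanded from single cells, so each is 1 clone. All cells carried a fluorescent histone label and were untreated when sequenced. Each population has 1 library. No difference could therefore be compared with a spread between replicates, and nothing was tested.

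Chromosome 19 is the most gene-dense human chromosome, and large parts of both arms are occupied by clusters of zinc finger genes, most of which encode repressors of transcription. The tip of the long arm holds further zinc finger clusters together with the genes of leukocyte receptors. When a stretch of a chromosome is lost or gained, the RNA of many genes in it tends to shift in the same direction, which is why copy number can be inferred from RNA by averaging over neighbouring genes. In a bulk library, a large shift in a part of the cells and a smaller shift in all cells cannot be told apart.

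The 8 libraries had between 2717355 and 3497722 counts in rows with a symbol, and chromosome 19 rows held between 16.3% and 17.5% of them. PC9-MGH, with 494083 counts or 17.1% of its library, lay inside that range. Of the 1437 rows, 381 had no count in any library and 604 had a mean of at least 10 counts, 307 on the short arm (19p) and 297 on the long arm (19q). Unless said otherwise, values below are over those 604 rows. They make up 9.52% of the 6347 rows of all chromosomes that passed this filter. A value is the log2 CPM (counts scaled to the size of the library) in 1 library minus the median of the other 7 libraries, called the log2 difference below.

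Row names do not identify the transcript that was counted, so no gene is interpreted and the cell type was not checked against marker genes. Ribosomal protein genes are among the most strongly expressed genes of any cell, but of the 12 rows of chromosome 19 named for them, 7 had a mean of under 10 counts. Those that start at 1.44 Mb and 5.67 Mb (hg38) had means of 5945 and 4194 counts, while the row that starts at 8.32 Mb had 0. When the exons of the named genes were moved along the chromosome in blocks of 4 Mb, the overlap with annotated exons followed the counts best, from 8 Mb on, after a move of 109.7 to 185.5 kb on 19p and of 490.7 to 514.0 kb on 19q (Spearman's rho across rows of 0.474 to 0.790, over 29 to 154 rows a block). The rho of the best move more than 50 kb away was 0.393 to 0.704 in those blocks, and the rows of a block share libraries and base composition. In the first 8 Mb no single move stood apart. Positions are given as the start of the named gene on hg38, and the counted sequence may lie about that far from it. From 8 Mb on, each window of 20 rows or more, and the last of 19q with 17 rows, spans more than this. Placing the rows at the moved positions left the numbers of windows below and above at 8 and 12. Neighbouring rows are moved by nearly the same distance, so their order hardly changes. These numbers therefore cannot show whether the displacement matters.

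Over the whole chromosome, the median log2 difference of PC9-MGH was 0.07, against -0.04 to 0.02 in the other 7 libraries and -0.02 over all rows of PC9-MGH. Its median thus ranked seventh from the highest of 23 chromosomes, where the lowest, chromosome 20, had -0.43 and the highest, chromosome 18, had 0.40. The single value covered opposite shifts. On 19p the median of PC9-MGH was 0.20 (95% interval over rows 0.12 to 0.26), and the other 7 libraries lay between -0.06 and 0.02. On 19q it was -0.08 (-0.17 to 0.02), and the others lay between -0.04 and 0.05. These intervals are exact binomial intervals of a median. They describe the spread between rows of 1 library, and rows are not replicates.

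**Figure D1:**
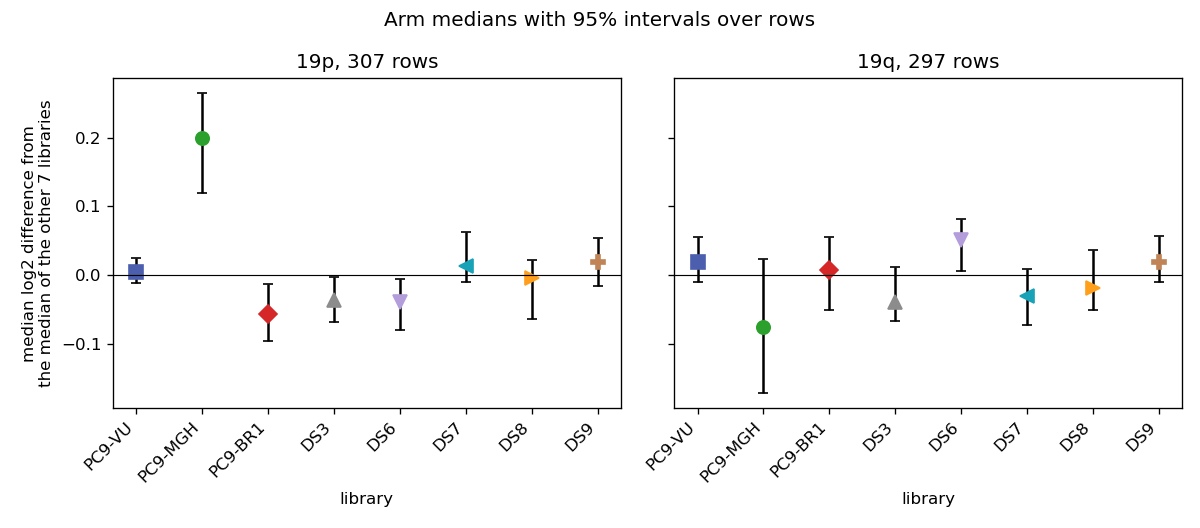
Median log2 difference from the median of the other 7 libraries for rows of 19p (307 rows) and 19q (297 rows), with 95% intervals over rows, in 8 libraries. PC9-MGH stands at 0.20 on 19p, above the other libraries, and at -0.08 on 19q, where its interval is the widest and includes 0.

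The arms differed in the same direction in their share of the counts. On 19p, PC9-MGH had 11.2% of its counts (exact Clopper-Pearson interval 11.1% to 11.2%), and the other libraries had 9.65% to 10.4%. On 19q, it had 5.90% (5.88% to 5.93%), and the others had 6.37% to 7.63%. PC9-MGH was therefore the highest library on 19p and the lowest on 19q. The Clopper-Pearson intervals cover counting error only, and reads that were amplified by PCR are not independent molecules. PC9-MGH was not low along all of 19q. In the 200 rows of 19q that start at 49.98 Mb or before, its median log2 difference was 0.05, and the others lay between -0.07 and 0.07.

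Rows at least 2-fold lower in PC9-MGH were mostly on 19q. On the whole chromosome, 76 of 604 rows (12.6%) were at least 2-fold lower in PC9-MGH than the median of the other 7, against 10.3% of all rows, and 32 rows (5.30%) were at least 2-fold higher, against 6.81% of all rows. Both shares lay near those of all rows. By arm they diverged, with 23 rows lower and 18 higher on 19p, and 53 lower (17.8%) and 14 higher (4.71%) on 19q. At least 2-fold below the lowest of the other 7 libraries were 29 rows, 22 of them on 19q, against 3.97% of all rows. At least 2-fold above the highest were 9 rows, against 2.28% of all rows.

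Rows of each arm were ordered by position and cut into windows of 20 rows, 15 on each arm, and the median of a window was compared between libraries. PC9-MGH lay below all other 7 libraries in 8 of 30 windows (26.7%), against 29.3% of the 287 windows of other chromosomes. It lay above all of them in 12 windows (40%), against 20.2% on other chromosomes. Being outside the other libraries is thus common for PC9-MGH across the genome, and the windows below do not exceed that background in number. In length of run, only the windows above exceeded those of other chromosomes. The 12 windows above included a run of 8 neighbouring windows on 19p, and no run above on another chromosome was as long, the longest there being 5 windows. Some other chromosomes hold fewer than 8 windows in all, and with windows of 10 rows this run was broken. The windows below included a run of 5 at the end of 19q, and 3 runs elsewhere were at least as long, with 6 windows as the longest. The standard deviation of the 30 window medians was 0.44 in PC9-MGH and 0.06 to 0.20 in the other 7 libraries. On the other chromosomes it was 0.36 in PC9-MGH and 0.09 to 0.26 in the others, so PC9-MGH had the widest spread there too.

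**Figure D2:**
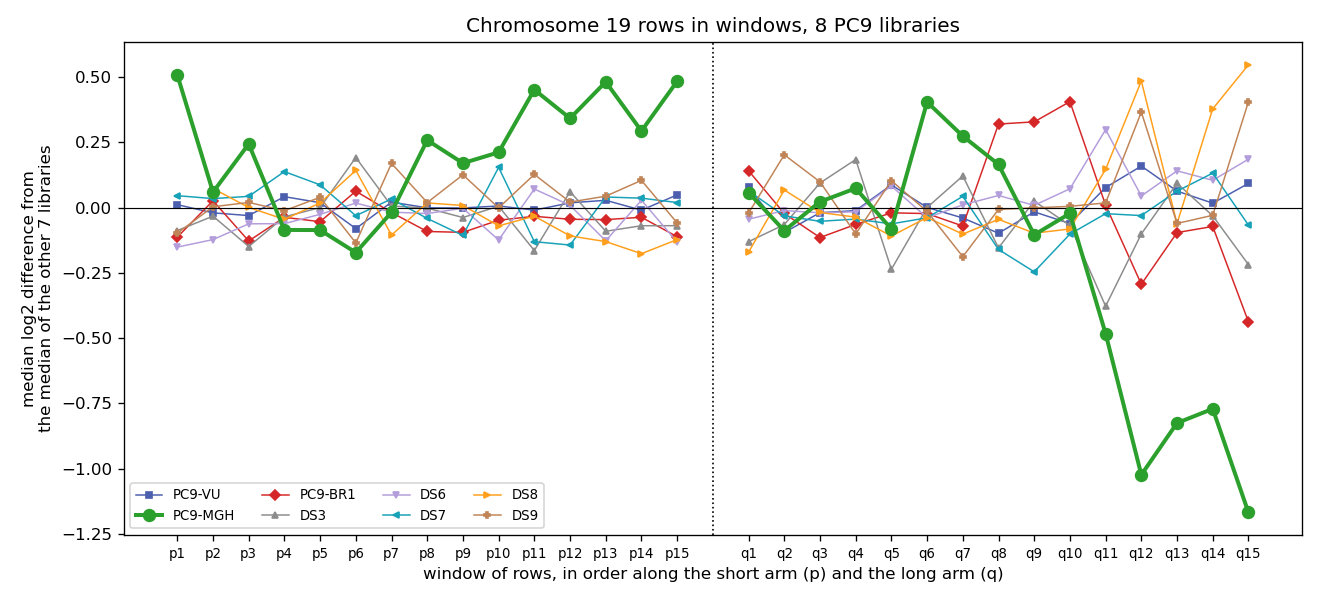
Median log2 difference from the median of the other 7 libraries in 30 windows of chromosome 19 rows, numbered along 19p and 19q, with 1 line per library and a dotted line between the arms. PC9-MGH (thick line) runs above the others from p8 to p15 and falls to between -0.48 and -1.17 from q11 to q15.

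Neighbouring rows had the same sign of the log2 difference in 63.2% of 603 pairs in PC9-MGH, and in 52.9% to 58.5% in the other libraries. On the other chromosomes the share was 64.6% in PC9-MGH and 54.1% to 61.6% in the others. The tendency of neighbours to move together in PC9-MGH was thus no stronger on chromosome 19 than elsewhere.

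A stretch is called here 2 or more neighbouring windows of 1 arm in which PC9-MGH lay outside the other 7 libraries on the same side. There were 4 such stretches, 2 below and 2 above. Because they were defined by the values of PC9-MGH, those values are a description and were not tested. The other 7 libraries are all PC9-VU or derived from it, so they are not independent of each other. A shift in PC9-MGH cannot be told apart from an opposite shift shared by that lineage.

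The lower stretch at the end of the long arm, 19q windows 11 to 15, held 97 rows that start between 50.2 Mb and 58.1 Mb (chr19:50188186-58083838, hg38). The median log2 difference was -0.86 in PC9-MGH, -0.21 in PC9-BR1, -0.10 in DS3, 0.04 in DS7, 0.07 in DS9, 0.09 in PC9-VU, 0.15 in DS6 and 0.27 in DS8. PC9-MGH was lowest by a wide margin, and the middle of its rows, between the quartiles at -1.21 and -0.33, did not reach the median of any other library. Of the 97 rows, 79 were lower and 18 higher than the median of the other 7, and 42 (43.3%) were at least 2-fold lower, against 10.3% of all rows.

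PC9-MGH was the lowest of the 8 libraries in 69 of these rows (71.1%), against 25.5% of all rows. It was the highest in 4 rows (4.12%), against 24.0% of all rows. In 16 of the 97 rows it lay at least 2-fold below the lowest other library, as it did in 3.97% of all rows, and in 0 at least 2-fold above the highest. Compared with each other library by itself, the median difference of PC9-MGH lay between -0.73, against PC9-BR1, and -1.04, against DS8. Against its sister version PC9-VU it was -0.83, with 82 rows lower and 15 higher.

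The summed counts of this stretch were also lowest in PC9-MGH and next lowest in PC9-BR1, while the order of the other 6 libraries differed from that of their medians. They were 1.02% of the library in PC9-MGH (1.01% to 1.03%), 1.84% in PC9-BR1 and 1.95% to 2.13% in the other 6 libraries. The row with the most counts held 15.4% of the counts of the stretch in PC9-MGH and 16.5% to 21.4% in the others, so the sum was not set by 1 row.

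The windows of this stretch can be read 1 by 1. In window 12, which starts at 52.3 Mb and in which 17 of 20 rows are named for zinc finger genes, the medians were -1.02 in PC9-MGH, -0.29 in PC9-BR1, -0.10 in DS3, -0.03 in DS7, 0.04 in DS6, 0.16 in PC9-VU, 0.37 in DS9 and 0.48 in DS8. In window 13, from 54.5 Mb to 55.2 Mb, no row is named for a zinc finger gene. There PC9-MGH was at -0.83 and the other 7 were close together, with PC9-BR1 at -0.10, DS8 and DS9 both at -0.06, PC9-VU and DS7 both at 0.06, DS3 at 0.09 and DS6 at 0.14, and 19 of 20 rows were lower in PC9-MGH. This window also had the highest counts of the stretch, with a median of 656 per row.

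In window 14 the median was -0.77 in PC9-MGH, -0.07 in PC9-BR1, -0.03 in DS3, -0.03 in DS9, 0.02 in PC9-VU, 0.10 in DS6, 0.13 in DS7 and 0.38 in DS8. In window 15, with 17 rows from 57.4 Mb on, it was -1.17 in PC9-MGH, -0.44 in PC9-BR1, -0.22 in DS3, -0.07 in DS7, 0.09 in PC9-VU, 0.19 in DS6, 0.41 in DS9 and 0.55 in DS8. Only 1 of the 287 windows on other chromosomes had a lower median in PC9-MGH than window 15.

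The edge of the stretch toward the centromere was less clear. In window 11, which starts at 50.2 Mb, PC9-MGH had -0.48 and DS3, the next lowest, had -0.38, with a median of 32.9 counts per row and 71% of the counts in 1 row. Windows of 10 rows put PC9-MGH below the others already at 49.5 Mb, with -0.41, then within them in the window that starts at 50.2 Mb, below at 51.4 Mb with -0.75, and within again at 52.3 Mb with 0.01. Some of these windows span less than the displacement of the row names, so they place the edge only roughly. From 52.9 Mb to the end, all 6 of them, the last with 17 rows, lay below, between -0.61 and -1.29.

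**Figure D3:**
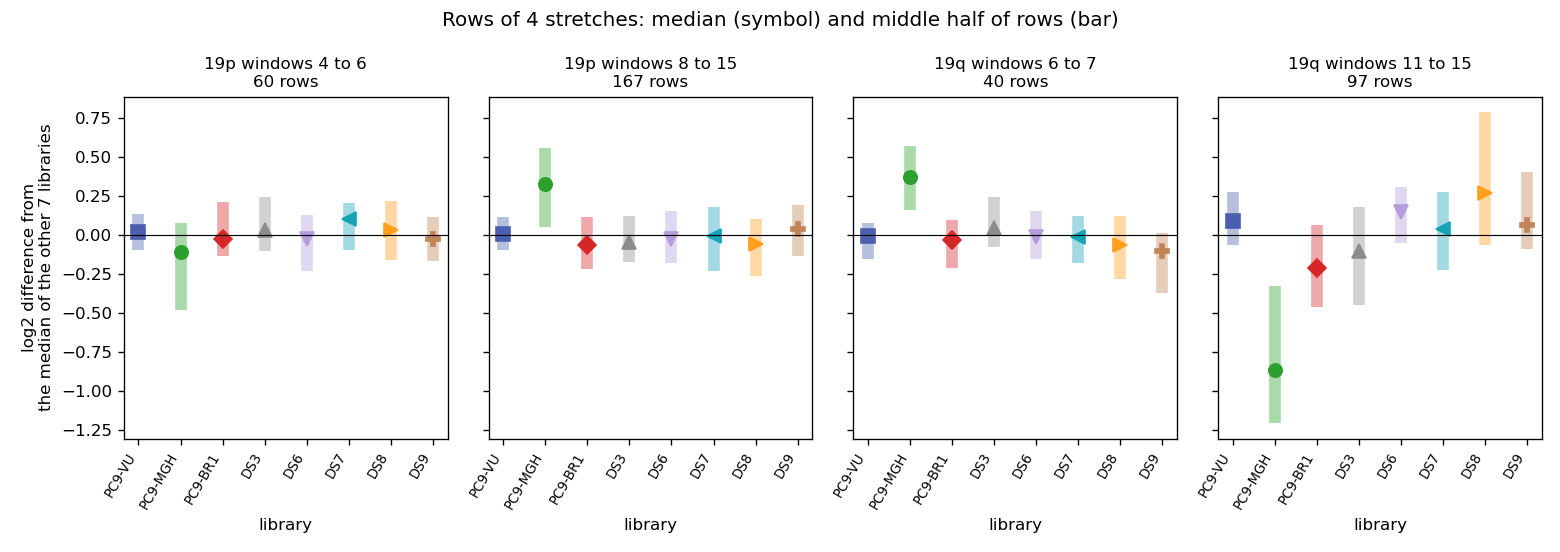
Median (symbol) and middle 50% of rows (bar) of the log2 difference in each of 8 libraries, for the 4 stretches where PC9-MGH lay outside the other libraries. In 19q windows 11 to 15 PC9-MGH stands at -0.86 against -0.21 to 0.27 in the others, and in 19p windows 8 to 15 at 0.33 against -0.07 to 0.04.

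The rows of the stretch were ranked by mean count and cut into 3 groups. In the 33 rows with the highest counts, all 33 were lower in PC9-MGH, with a median of -0.91, and the other 7 libraries lay between -0.18 and 0.13. In the 32 rows of the middle group, 27 were lower, with a median of -1.02 against -0.27 to 0.34. In the 32 rows with the lowest counts, which had means of 10.4 to 37.6, the median was -0.19 and lay inside the others, which ranged from -0.54 in DS3 to 0.72 in DS8, where 24 of the 32 rows were higher. The part of depth in this was not tested. Rows named for zinc finger genes (47 rows) and the other rows (50 rows) had medians of -0.86 and -0.86 in PC9-MGH, with 35 and 44 rows lower.

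**Figure D4:**
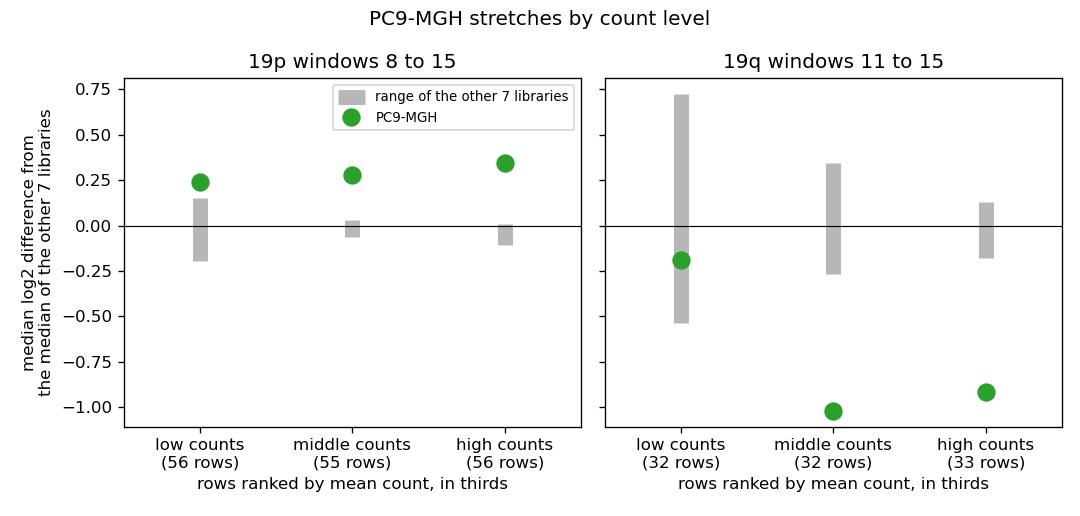
Median log2 difference of PC9-MGH (points) and the range of the other 7 libraries (bars) for rows of 2 stretches, ranked by mean count and cut into 3 groups. In 19q windows 11 to 15 the middle and high groups stand at -1.02 and -0.91 and the low group at -0.19, inside the others. In 19p windows 8 to 15 all 3 groups stand above the others, at 0.24, 0.28 and 0.34.

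The higher stretch on the short arm, 19p windows 8 to 15, held 167 rows that start between 6.44 Mb and 23.9 Mb (chr19:6436079-23914876, hg38), most of that arm. The median log2 difference was 0.33 in PC9-MGH, 0.04 in DS9, 0.01 in PC9-VU, -0.01 in DS7, -0.03 in DS6, -0.04 in DS3, -0.06 in DS8 and -0.07 in PC9-BR1. The other 7 libraries lay close together, and PC9-MGH stood above them all. Of the rows, 128 were higher and 39 lower, and 12 (7.19%) were at least 2-fold higher, near the 6.81% of all rows, while 8 (4.79%) were at least 2-fold lower, against 10.3% of all rows.

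PC9-MGH was the highest of the 8 libraries in 87 of the 167 rows (52.1%), against 24.0% of all rows. It was the lowest in 8 (4.79%), against 25.5% of all rows. Against each other library by itself the median difference was 0.26, against DS9, to 0.41, against DS8, and 0.32 against PC9-VU. The summed counts were 4.09% of the library in PC9-MGH (4.07% to 4.12%) and 3.03% to 3.27% in the others. The medians of its 8 windows were 0.17 to 0.48. With windows of 10 rows, PC9-MGH lay within the others in those that start at 7.92 Mb, 8.83 Mb and 13.96 Mb. Its medians there were 0.12, 0.21 and 0.11. In the last, window 15, which holds 27 rows from 18.2 Mb on, the medians were 0.48 in PC9-MGH, 0.05 in PC9-VU, 0.02 in DS7, -0.06 in DS9, -0.07 in DS3, -0.11 in PC9-BR1, -0.12 in DS8 and -0.13 in DS6, and 23 of the 27 rows were higher in PC9-MGH.

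The first 6.4 Mb of the short arm, windows 1 to 7, had no common direction in PC9-MGH. Over these 140 rows its median was 0.01, with 72 rows higher and 68 lower. Window 1, from 0.28 Mb to 1.01 Mb, had the highest median on the chromosome in PC9-MGH, 0.51, but DS8 was at 0.50, ahead of 0.05 in DS7, 0.01 in PC9-VU, -0.09 in DS3, -0.10 in DS9, -0.11 in PC9-BR1 and -0.15 in DS6. In DS8 19 of the 20 rows were higher, in PC9-MGH 14. Both libraries were thus high at the tip of 19p, and with windows of 10 rows PC9-MGH lay within the others there. Windows 4 to 6, from 2.23 Mb to 5.56 Mb, formed a lower stretch, with a median of -0.11 in PC9-MGH over 60 rows against -0.03 to 0.10 in the other libraries. The margin was small, since the window medians were -0.09, -0.09 and -0.17 and the lowest other libraries were at -0.06, -0.05 and -0.14. It was also uneven, since 2 windows of 10 rows, from 2.71 Mb and from 4.54 Mb, had medians of -0.58 and -0.60, and the other 4 lay between -0.12 and -0.02. Window 3, from 1.48 Mb, was higher in PC9-MGH, at 0.24 against -0.15 to 0.04.

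On the long arm before 50 Mb, PC9-MGH mostly lay among the others. Over windows 1 to 5, which hold 100 rows from 31.8 Mb to 43.6 Mb, its median was 0.02 and the other libraries lay between -0.06 and 0.07. Windows 6 and 7, 40 rows from 43.6 Mb to 46.7 Mb (chr19:43622368-46746046, hg38), formed a higher stretch. The median was 0.37 in PC9-MGH, 0.05 in DS3, -0.01 in PC9-VU, DS6 and DS7, -0.03 in PC9-BR1, -0.07 in DS8 and -0.11 in DS9, and 35 of the 40 rows were higher. The 8 rows named for zinc finger genes, all in window 6, were all higher, with a median of 0.77, and the other 32 rows had a median of 0.27. Without the 97 rows of the lower stretch at its end, the whole chromosome had a median of 0.15 in PC9-MGH, with 320 rows higher and 187 lower.

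Other libraries had stretches of their own by the same rule. PC9-BR1 lay above the other 7 in 19q windows 8 to 10, 60 rows from 46.8 Mb to 49.98 Mb, next to the lower stretch of PC9-MGH. The median there was 0.35 in PC9-BR1, with 54 rows higher, and 0.04 in DS6, -0.01 in DS9, -0.02 in PC9-MGH, -0.03 in DS3, -0.04 in PC9-VU, -0.07 in DS8 and -0.13 in DS7. PC9-BR1 was made from PC9-VU, and PC9-VU and the sublines were at 0.04 or lower there, with DS7 below all others in each of the 3 windows. DS8 lay above the others in 19q windows 14 and 15, with medians of 0.38 and 0.55. Over the whole end of 19q, DS8 had 0.55 in the 47 rows named for zinc finger genes and -0.02 in the 50 other rows. By count level, DS8 had 0.72 in the low group, 0.33 in the middle group and 0.005 in the 33 rows with the highest counts. PC9-MGH had -0.86 in both classes of names, and -0.19, -1.02 and -0.91 in the low, middle and high groups. The shifts of both libraries thus varied with count level, in opposite order between the low and high groups. The remaining stretches of the sublines, 2 to 3 windows each, had window medians between -0.25 and 0.20.

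GC content was higher on chromosome 19 than on any of the other chromosomes compared, with a median of 50.8% around the named genes, against 43.6% over all matched rows. After a correction of each library for the GC content around the named gene, the median of PC9-MGH was -0.84 in 19q windows 11 to 15 and 0.33 in 19p windows 8 to 15. That content was taken up to 250000 bases on either side of the named gene. The counted sequence of 19q may lie farther away, so the value there cannot show whether GC content matters. Culture and preparation of these single libraries cannot be told apart from the populations.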

How the data were processed

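RNA of 8 PC9 populations, 1 library each, was sequenced by the authors after depletion of ribosomal RNA and selection of poly-A RNA. Per the submitters' processing notes, reads were aligned to hg38 with STAR (2.5.2b) and counted with featureCounts (1.6.4). The authors deposited raw counts in 1 table, not normalized. Strandedness and the handling of reads over several genes are not given in the sources used here. The 8324 rows without a symbol (4.23% to 4.41% of a library) were left out.

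Log2 CPM values were computed with TMM factors (edgeR 4.0.16, R 4.3.3, prior count 2) for rows whose mean count was 10 or more. Each library was compared with the median of the other 7. Positions came from GENCODE release 44, and the arms were divided at the widest gap between protein-coding gene starts. Rows of each arm were cut into windows of 20. Windows of other chromosomes were not divided by arm. With 1 library per population nothing was tested. DESeq2 (1.42.0) gave size factors and rlog values as alternatives. The 6 windows with the largest PC9-MGH median in either direction are given library by library. No gene is named, because row names do not identify the transcripts. The members, windows and classes of row names were chosen with earlier results of these data known.

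On simulated counts of 6347 rows, in which the 19q rows of PC9-MGH had been raised 1.5-fold (0.58 on the log2 scale), these steps gave a median of 0.58 on 19q and -0.01 on 19p. The simulated rows came from a profile pooled over all libraries, with counting noise only and the whole arm raised evenly. The result therefore checks the arithmetic of the arm medians, and cannot show how windows or stretches behave in real libraries.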

Additional observations from a re-analysis of the deposited data

How the results depend on the processing

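Since a population is 1 library, each of the other 7 libraries was left out of the reference in turn. No paired analysis was possible because each population has a single library. The medians of the 2 long stretches and the placing of rows by the moved exons were added after seeing the data, and a value is said to have moved when it left its interval over rows or, for a count, changed by over 1.5 times. In the order chromosome 19, 19p, 19q, 19q windows 11 to 15 and 19p windows 8 to 15, the medians of PC9-MGH are 0.07, 0.20, -0.08, -0.86 and 0.33. Leaving out 1 library gave 0.06 to 0.08, 0.19 to 0.22, -0.09 to -0.05, -0.88 to -0.85 and 0.31 to 0.34. With rlog values, which shrink differences, 19p moved to 0.11 and the stretches to -0.34 and 0.18. Without the filter on low counts the chromosome moved to 0.00, 19p to 0.0905 and the stretches to -0.43 and 0.22, over 1056 rows. In that setting the other 7 libraries had 0.00 for the chromosome and for both arms, and PC9-MGH had 0.00 on 19q. The cause of these changes was not tested. Against the mean of the 3 versions, which includes PC9-MGH itself, the stretches moved to -0.51 and 0.23. Neither stretch median changed direction in any of 11 settings or 7 omissions.

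Rows at least 2-fold lower and higher in PC9-MGH number 76 and 32 (70 to 77 and 30 to 35 when 1 library is left out). They number 6 and 8 with rlog values, 45 and 16 among the 439 rows whose mean is 50 or more, 29 and 21 against the mean of the 3 versions, 118 and 91 at 1.5-fold, 19 and 9 at 4-fold, and 29 and 9 outside the range of the other 7. Without the filter 80 are higher. Lower rows outnumbered higher ones except with rlog values. They also did so over all rows, with 10.3% lower and 6.81% higher, so these counts are not read as an excess on the chromosome. Shares over all rows were not computed for most of these settings.

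Windows with PC9-MGH below and above the other 7 number 8 and 12 of 30 (7 to 9 and 10 to 12 when 1 library is left out). They number 13 and 21 of 59 windows of 10 rows, 4 and 6 of 16 windows of 40 rows, and 2 and 4 of 10 windows of 5 Mb, because the number of windows differs. The windows below number 5 of 22 among those 439 rows and 5 of 26 without rows named for zinc finger genes, where fewer rows are left. Prior count, size factors, TMM factors without chromosome 19, thinning, PC9-VU as the reference and GC content left these counts within 1.5 times. Moved positions did too, but they hardly change the order of the rows. Of 228 values for arms and chromosome in the other 7 libraries, 208 stayed within their interval, and all lay between -0.10 and 0.09. In rows of the end of 19q with means up to 37.6 counts the other libraries ranged from -0.54 to 0.72. The part of depth in that spread was not tested.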

Other observations

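Rows named for some gene families of chromosome 19 were read as classes of names only. Of 274 rows named for zinc finger genes, 83 had no count in any library and 91 had a mean of at least 10 counts. Their median log2 difference in PC9-MGH was 0.24 in the 24 such rows of 19p, where 16 were higher, and -0.45 in the 67 of 19q, where 39 were lower and 20 at least 2-fold lower. Of those 67 rows, 47 lie in 19q windows 11 to 15, with 35 of the 39 lower rows and all 20 of the 2-fold lower rows, so this value restates that stretch. The other 7 libraries spread from -0.17 to 0.15 and from -0.19 to 0.40 in the same rows. Of 20 rows named for olfactory receptors, which most tissues do not express, 13 had no count and 2 had a mean of at least 10. Of 15 rows named for kallikreins, 9 had no count. The 3 with a mean of at least 10 were all lower in PC9-MGH, with a median of -2.40 against -0.79 to 0.45 in the others. None of these 3 had a mean above 29.5 counts, and rows of such low counts spread widely between libraries at the end of 19q. Of 21 rows named for pregnancy-specific glycoproteins or related CEACAM genes, 7 passed the filter, 5 of them lower in PC9-MGH, with a median of -0.10 against -0.27 to 0.14. The 5 rows named for ribosomal proteins that passed had a median of 0.20 in PC9-MGH, inside the -0.12 to 0.22 of the others.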
